A study of Mus musculus with 12 samples.

Results

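The genes described here encode the proteins that organize, pair and recombine chromosomes in meiotic prophase, together with a few regulators of entry into it. The list had 35 genes, chosen by gene symbol from the 21859 genes of the expression table, and 34 were found under their listed symbol and *Iho1* under its synonym *Ccdc36*. RNA was sequenced from sorted GFRa1+/KIT- spermatogonia of adult mouse testes, in 5 control libraries and 7 libraries from testes made cryptorchid by surgery. The study asked how the raised testis position changes the epigenome and the transcriptome of the stem cell fraction. Mice of both groups were labelled WT and, by the study's methods, carried a GFRa1-EGFP reporter, so the sort rested on the reporter and on KIT antibody. Cryptorchid testes were taken on day 10 after surgery. RNA of about 200 cells entered each Smart-seq2 library, a protocol that amplifies full-length cDNA. Control testes were digested at a lower temperature than cryptorchid testes, so that digestion temperature and testis position cannot be told apart. By the study's methods the operation was on 1 side, so a mouse could give a testis to each group. The labels do not say which libraries share a mouse, and *P*-values then measure the spread between these libraries.

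In meiotic prophase, cohesin rings with meiosis-specific subunits hold sister chromatids in loops along a protein axis. HORMA domain proteins bind this axis, SPO11 and its partners cut the DNA, and the strand exchange proteins guide the broken ends to the homologous chromosome. The synaptonemal complex then zips the homologs together, and a set of crossover proteins turns some of the repair sites into crossovers. In the testis this program runs in spermatocytes after STRA8 and MEIOSIN have started meiosis in response to retinoic acid. Stem cell spermatogonia of the sorted type divide by mitosis, and transcripts of several of these genes are known to be present in spermatogonia before meiosis starts.

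The libraries held 4511730 to 24345368 reads on genes in the control group and 3306771 to 20027902 in the cryptorchid group. The values showed a technical split between replicates 1 to 3 of both groups, with 53.2% to 60.8% even numbers among low read counts, and the replicates from 4 upward, with 48.2% to 50.5%. Replicates 1 to 3 are 3 control and 3 cryptorchid libraries and the rest are 2 and 4, and differences within each set are given beside the pooled ones. *Gfra1*, a marker of the sorted cells, lay between 6.80 and 9.59 log2 RPM (read counts scaled to the total of the library). All 18 undifferentiated spermatogonia markers had reads in at least 1 library. The same held for every listed marker of other cell types, so reads alone do not identify the sorted cells. RNA of other germ cells was also present, since the summed RPM of 14 spermatid markers was 614 to 3116 in control and 35.5 to 2214 in cryptorchid libraries. In bulk RNA, fewer cells of a type and less RNA per cell cannot be told apart.

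Of the 35 members, 5 had a *P*-value under 0.05 before adjustment, and the DNA upstream of their start sites is shown so that the genes with the smallest *P*-values can be compared at their promoters. These are *Hfm1* (ENSMUSG00000043410.16, chr5:106840192-106926321), *Sycp2* (ENSMUSG00000060445.11, chr2:178345293-178407685), *Mlh3* (ENSMUSG00000021245.15, chr12:85234520-85270599), *Smc1b* (ENSMUSG00000022432.7, chr15:85064689-85131964) and *Tex12* (ENSMUSG00000032065.6, chr9:50556819-50561325), with gene positions from GENCODE vM21 on GRCm38. All 5 lie on the minus strand. Each sequence is from the 250 bases before a RefSeq transcript start on GRCm38.p6, read 5′ to 3′ on the gene's strand, and capitals mark matches to 4 searched motifs. Bases next to the start that GENCODE places in an exon are not shown, which are 57 for *Tex12*, 27 for *Sycp2* and 7 for *Smc1b*. The *Hfm1* window lies in an intron of a longer GENCODE transcript, and the others lie before the gene.

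Hfm1 (chr5:106925891-106926140): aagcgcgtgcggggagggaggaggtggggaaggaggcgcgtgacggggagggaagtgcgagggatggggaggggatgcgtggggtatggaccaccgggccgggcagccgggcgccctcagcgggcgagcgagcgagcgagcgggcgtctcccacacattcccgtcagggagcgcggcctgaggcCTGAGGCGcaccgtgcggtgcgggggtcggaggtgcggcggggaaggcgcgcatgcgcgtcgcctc
Sycp2 (chr2:178407686-178407908): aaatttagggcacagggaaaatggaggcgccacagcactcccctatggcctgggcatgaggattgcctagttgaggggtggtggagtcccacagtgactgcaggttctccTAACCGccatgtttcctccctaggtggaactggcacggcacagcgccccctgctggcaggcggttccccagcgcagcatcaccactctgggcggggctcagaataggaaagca
Mlh3 (chr12:85270600-85270849): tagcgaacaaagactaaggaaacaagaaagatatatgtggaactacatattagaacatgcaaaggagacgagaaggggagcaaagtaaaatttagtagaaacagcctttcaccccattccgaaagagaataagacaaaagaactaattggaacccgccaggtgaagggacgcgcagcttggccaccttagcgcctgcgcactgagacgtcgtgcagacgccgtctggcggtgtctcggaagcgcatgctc
Smc1b (chr15:85131965-85132207): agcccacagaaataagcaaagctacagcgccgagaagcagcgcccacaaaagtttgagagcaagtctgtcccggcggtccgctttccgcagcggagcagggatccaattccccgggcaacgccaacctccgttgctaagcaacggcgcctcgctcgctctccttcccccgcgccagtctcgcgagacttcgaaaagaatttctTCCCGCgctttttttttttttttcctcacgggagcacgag
Tex12 (chr9:50561326-50561518): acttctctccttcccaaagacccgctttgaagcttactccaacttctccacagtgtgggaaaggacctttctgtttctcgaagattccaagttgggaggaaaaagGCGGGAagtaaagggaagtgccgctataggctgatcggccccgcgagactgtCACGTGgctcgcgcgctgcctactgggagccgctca

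The searched motifs were CACGTG (E-box), GCGGGA (an E2F site), CNCCTCAG (the letters described for STRA8-MEIOSIN) and TAACNG (a MYB site), on both strands and none containing another. The *Hfm1* window held CNCCTCAG on the reverse strand, beginning 66 bases before the start. *Sycp2* had a MYB match at 140 bases, *Smc1b* an E2F match at 47 bases, and *Tex12* an E2F match at 145 and an E-box at 93 bases before the start. The *Mlh3* window had no match to these letters. Windows were given for 29 of the 35 members. An E-box was in 7 of these, 24.1% against 6.86% of 27025 genes with a window, and the E2F letters were in 13, 44.8% against 18.8%. CNCCTCAG was in 4 members, 13.8% against 7.39%, and TAACNG in 10, 34.5% against 22.3%. The shares describe letters in a window of fixed length and were not tested.

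Transcripts of all 35 members were present in all 12 libraries, with at least 2 reads in each, and 30 had a mean above 10 RPM over the libraries and 10 above 100 RPM. *Tex14*, needed for the intercellular bridges between germ cells, had the highest mean of 357 RPM. *Tex15* (240 RPM), *Tex11* (233 RPM), *Stag3* (188 RPM), *Sycp2* (156 RPM) and *Sycp1* (151 RPM) came next. Levels between genes were compared per kilobase of exon. On the log2 scale of RPM per kilobase, *Sycp3*, an axis protein of the synaptonemal complex, was highest in both groups, at 6.11 ± 1.001 (SD, n = 5) in control libraries and at 6.75 ± 0.73 (SD, n = 7) in the cryptorchid group. *Tex14* (6.02 ± 0.25 in control), *Syce1* (5.97 ± 0.56), *Tex11* (5.80 ± 0.22) and *Syce2* (5.64 ± 0.91) followed within the SD of *Sycp3*. The lowest in control were *Hfm1* (0.12 ± 0.69), *Spata22* (0.33 ± 1.88), *Spo11* (0.46 ± 0.58) and *Majin* (0.50 ± 1.58), whose order is also within their SDs. The list thus ran from *Sycp3* and the bridge gene *Tex14* at high levels to the break and crossover enzymes SPO11 and HFM1 near the low end. The spread between libraries differed among members, from a SD of 0.22 for *Tex11* to 1.88 for *Spata22* in control log2 RPM, with a median SD of 0.60 in control and 0.66 in cryptorchid libraries.

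**Figure D1:**
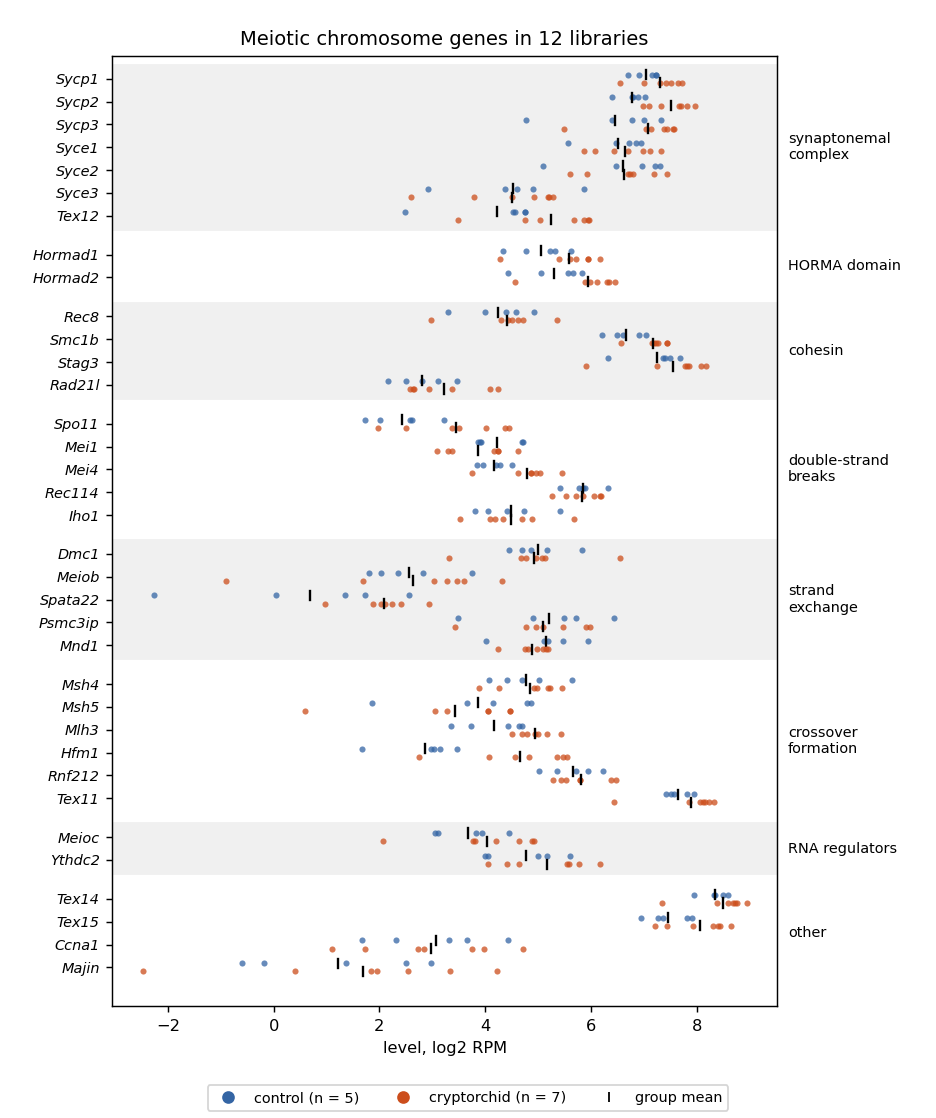
Level of each of the 35 members in every library in log2 RPM (horizontal axis), by role, with 1 point for each of 5 control (blue) and 7 cryptorchid (red) libraries and a black bar at each group's mean. Both groups overlap for every member, and 6 of 7 cryptorchid points of Hfm1 lie above its highest control point.

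The comparison of both groups asked whether meiotic chromosome genes change in the stem cell fraction of the cryptorchid testis. *Hfm1* and *Tex12* were called higher in cryptorchid libraries, at a change of 2-fold or more and an unadjusted limma *P*-value under 0.05, and no member was called lower. That is 5.71% of the members called higher, and over all 16932 genes tested the same rule called 3.56% higher and 2.36% lower, or 5.92% in either direction. With the *P*-value alone, 5 members were higher (14.3%, against 5.67% of all genes) and 0 were lower (against 3.82%). None of the members had an adjusted *P*-value under 0.05 in this unpaired fit, their smallest being 0.226, and over all genes tested 2 did (0.0118%). The fits with the replicate number as a block and with array weights differed in this and are given with the processing alternatives. By the exact two-sided rank sum test, 6 members had an unadjusted *P*-value under 0.05, namely *Hfm1*, *Sycp2*, *Mlh3*, *Smc1b*, *Hormad2* and *Mei4*, all higher in cryptorchid libraries. That is 17.1% of the members, and of all genes tested 5.88% were higher and 3.74% lower by this test.

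A higher mean in cryptorchid libraries was seen for 27 of 35 members (77.1%), and for 56.7% of all genes tested, while the other 43.3% of all genes had a lower mean. The median log2 difference was 0.26 over the members and 0.10 over all genes. No member had groups that do not overlap, while 0.555% of all genes did not overlap and were higher and 0.283% were lower. For 28 members the 95% interval of the difference excluded a 2-fold decrease, for 14 it excluded a 2-fold increase, and for 11 it excluded both. For the other members the libraries did not bound the change this closely.

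**Figure D2:**
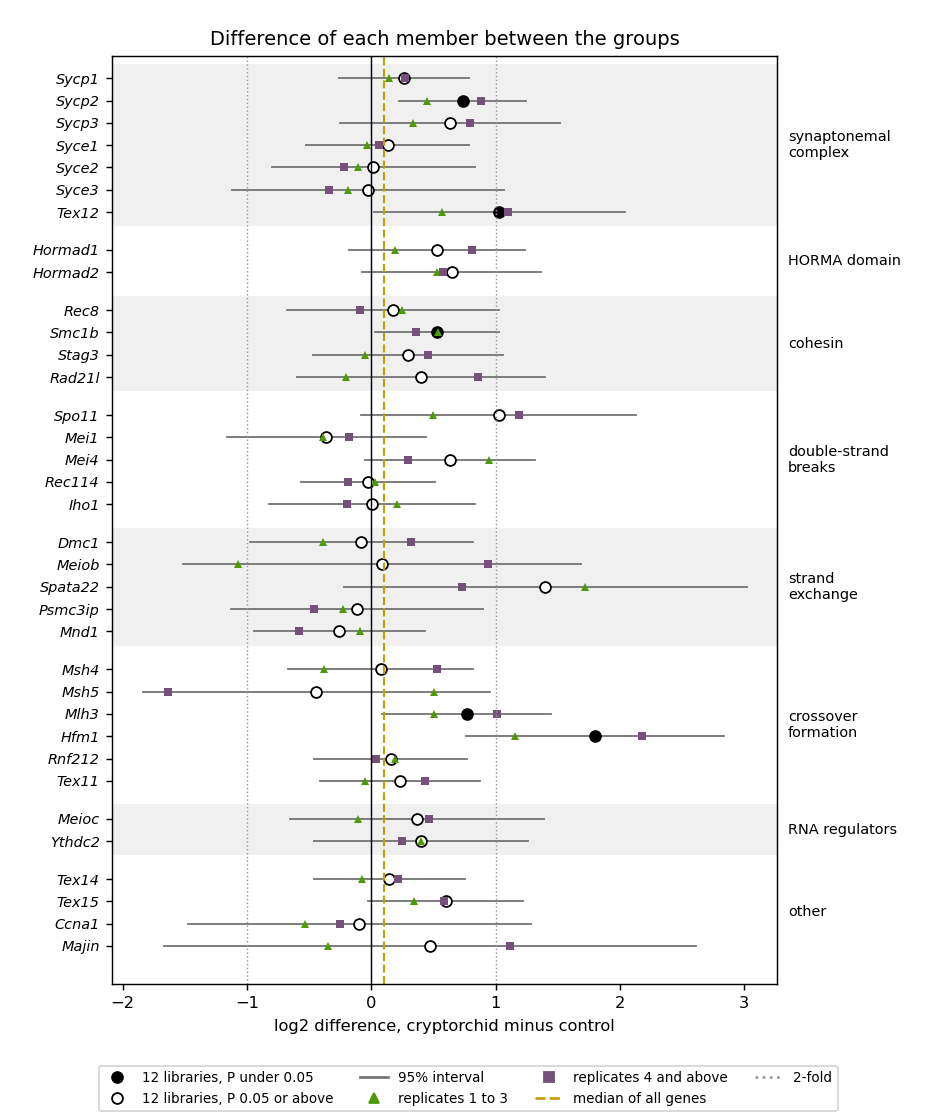
Log2 difference of each member between cryptorchid and control libraries (horizontal axis), by role, with circles for all 12 libraries, lines for the 95% interval, triangles for replicates 1 to 3 and squares for the replicates from 4 upward. Filled circles have an unadjusted P under 0.05, the dashed line is the median of all genes at 0.10 and dotted lines mark 2-fold. The 5 filled circles are to the right of 0, and Hfm1 is the farthest at 1.80.

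Crossover genes held the member with the largest difference. *Hfm1* encodes a DNA helicase needed to complete crossovers. Its control libraries 1 to 5 had 3.46, 1.68, 3.04, 2.97 and 3.15 log2 RPM, and its cryptorchid libraries ran from 2.75 to 5.55 with a median of 4.82. In 6 of 7 cryptorchid libraries it was above the highest control library, and the exception was cryptorchid replicate 2. The log2 difference was 1.80 ± 0.50 (SE) with a 95% interval of 0.76 to 2.84 on that scale, or 3.48-fold (limma, unadjusted *P* = 0.00193, adjusted *P* = 0.226), and the exact two-sided rank sum *P* was 0.0303. It was 1.16 within replicates 1 to 3 and 2.18 within the others. *Mlh3*, a subunit of the MutL endonuclease that resolves crossover intermediates, had 4.63, 3.35, 4.70, 4.42 and 3.73 log2 RPM in control libraries, and its cryptorchid values ran from 4.51 to 5.44 with a median of 4.95. Cryptorchid values of *Mlh3* were close together and control values spread downward, with 5 of 7 cryptorchid libraries above all controls. Its log2 difference was 0.77 ± 0.32 (SE; limma, unadjusted *P* = 0.0288, adjusted *P* = 0.469). Its *P*-value rose to 0.05 or more without control replicate 2 (0.0982) or 5 (0.0759) or cryptorchid replicate 5 (0.0609) or 6 (0.0504).

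The other crossover genes did not pass the test. *Tex11*, an X-linked crossover gene with the highest RPM of this role, had 7.95, 7.58, 7.42, 7.51 and 7.82 log2 RPM in control, and cryptorchid libraries ran from 6.44 to 8.33 with a median of 8.13. In 5 of 7 cryptorchid libraries it exceeded all controls, and the log2 difference was 0.23 ± 0.31 (SE; limma, unadjusted *P* = 0.459). The SUMO ligase gene *Rnf212* differed by 0.16, and the MutS partners *Msh4* and *Msh5*, which stabilize recombination intermediates, by 0.08 and -0.44. *Msh5* was uneven, at 0.50 within replicates 1 to 3 and -1.63 within the others, and its lowest value of 0.58 log2 RPM was in cryptorchid replicate 7.

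Of 7 synaptonemal complex genes, *Sycp2* and *Tex12* had *P*-values under 0.05 and 6 had a higher mean in cryptorchid libraries. *Sycp2* encodes a protein of the lateral element. Its control values were 6.89, 6.40, 6.77, 6.79 and 7.03 log2 RPM, and its cryptorchid values ran from 6.99 to 7.97 with a median of 7.67. In 6 of 7 cryptorchid libraries it was above all controls, the exception being replicate 1. The log2 difference was 0.74 ± 0.24 (SE; limma, unadjusted *P* = 0.00719, adjusted *P* = 0.352), with an exact rank sum *P* of 0.00505, and it was 0.45 and 0.89 within the sets of replicates. *Tex12*, a small protein of the central element, had 4.56, 4.52, 2.48, 4.76 and 4.76 log2 RPM in control, and its cryptorchid values ran from 3.48 to 5.96 with a median of 5.67. Control replicate 3 and cryptorchid replicate 3 were the lowest of their groups for this gene, and 5 of 7 cryptorchid libraries were above all controls. The log2 difference was 1.03 ± 0.48 (SE; limma, unadjusted *P* = 0.0451, adjusted *P* = 0.517), while the exact rank sum *P* was 0.0732. Without control replicate 3 it was 0.60 (unadjusted *P* = 0.174), and the unadjusted *P*-value was also 0.05 or more without control replicate 2 (0.0501) or cryptorchid replicate 4, 5, 6 or 7 (0.0753 to 0.0886). Within replicates 1 to 3 no synaptonemal complex gene, *Tex12* included, had a log2 difference above 0.573.

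*Sycp3* differed by 0.64 ± 0.42 (SE; limma, unadjusted *P* = 0.149) and the transverse filament gene *Sycp1* by 0.26 ± 0.25 (unadjusted *P* = 0.308). The exons of *Sycp3* overlap *Chpt1* on the other strand, and since the strand of counting is not stated its reads cannot be assigned with certainty. The central element genes *Syce1*, *Syce2* and *Syce3* lay near 0, at 0.13, 0.02 and -0.03, and the signs of all 3 turned under some alternative. *Tex12* and *Syce2*, whose proteins form a common assembly in the central element, had log2 differences of 1.03 and 0.02. The difference between these genes was not tested.

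Both HORMA domain genes had higher means without passing the limma test. *Hormad2*, whose protein marks axes that have not synapsed, had 4.42, 5.05, 5.84, 5.56 and 5.66 log2 RPM in control, and its cryptorchid values ran from 4.56 to 6.45 with a median of 6.12. Cryptorchid replicate 2 stood apart at 4.56, and the other 6 cryptorchid libraries were above all controls. The log2 difference was 0.65 ± 0.34 (SE; limma, unadjusted *P* = 0.0761; exact rank sum *P* = 0.0303), and without cryptorchid replicate 2 it was 0.88 (unadjusted *P* = 0.00653). *Hormad1* differed by 0.53 ± 0.34 (SE; unadjusted *P* = 0.134) in all libraries and by 0.74 (unadjusted *P* = 0.0183) without that library.

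All 4 meiotic cohesin genes had a higher mean in cryptorchid libraries, and *Smc1b* passed the test. *Smc1b*, the meiotic core subunit of the ring, had 6.21, 6.49, 6.60, 6.92 and 7.05 log2 RPM in control, and its cryptorchid values ran from 6.57 to 7.43 with a median of 7.24. Cryptorchid replicate 1 lay among the controls and the other 6 were above them. The log2 difference was 0.53 ± 0.24 (SE; limma, unadjusted *P* = 0.0401, adjusted *P* = 0.498), or 1.44-fold, and 0.53 and 0.36 within the sets of replicates. Its *P*-value was 0.05 or more without control replicate 1 (0.114), 2 (0.0824) or 3 (0.0512), or without cryptorchid replicate 2 (0.0503), 4 (0.0780), 5 (0.0604), 6 (0.0639) or 7 (0.0750). *Stag3*, a meiotic subunit of the ring, had 7.69, 6.33, 7.37, 7.49 and 7.41 log2 RPM in control, and its cryptorchid values ran from 5.90 to 8.17 with a median of 7.82. Replicate 2 was the lowest library of both groups for *Stag3*, and the log2 difference was 0.30 ± 0.36 (SE; unadjusted *P* = 0.427). The meiotic kleisins *Rad21l* and *Rec8*, which close the ring, differed by 0.40 and 0.17.

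None of the 5 genes of double-strand break formation passed the limma test. *Rec114*, a partner of the break machinery with the highest RPM of this role, had 5.41, 5.78, 5.88, 6.32 and 5.85 log2 RPM in control, and its cryptorchid values ran from 5.26 to 6.18 with a median of 5.84. The groups covered nearly the same range, the log2 difference was -0.03 ± 0.26 (SE), and its 95% interval of -0.56 to 0.51 excluded a 2-fold change in either direction. Exons of *Rec114* overlap *Nptn* on the other strand. *Spo11*, the nuclease that cuts the DNA, differed by 1.03 ± 0.53 (SE; limma, unadjusted *P* = 0.0670) with 5 of 7 cryptorchid libraries above all controls. Its unadjusted limma *P*-value was under 0.05 with array weights (0.0216) and without control replicate 4 (0.0473) or cryptorchid replicate 1 (0.0208) or 2 (0.0362). In the other alternatives it was not. The log2 difference of *Mei4* was 0.63 ± 0.33 (SE; limma, unadjusted *P* = 0.0677; exact rank sum *P* = 0.0480), and within replicates 1 to 3 it was 0.95. *Iho1*, whose protein anchors the machinery to the axis, and *Mei1* differed by 0.0032 and -0.36.

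Strand exchange genes had no member past the test, and 3 of 5 had a lower mean. *Psmc3ip* and *Mnd1* encode partners that stimulate the recombinase DMC1. *Psmc3ip* had 4.90, 5.49, 3.48, 6.43 and 5.73 log2 RPM in control, and its cryptorchid values ran from 3.44 to 5.99 with a median of 5.10, which overlapped throughout. Its log2 difference was -0.11 ± 0.48 (SE), its exons overlap *Mlx* on the other strand, and *Mnd1* differed by -0.26 ± 0.33 (SE). *Dmc1* itself differed by -0.08 ± 0.43 (SE; unadjusted *P* = 0.854). The single-strand DNA binding partners *Meiob* and *Spata22* differed by 0.09 ± 0.76 and 1.40 ± 0.77 (SE), with few reads in the lowest libraries. *Spata22* in control replicate 2 rested on 6 reads, as did *Meiob* in cryptorchid replicate 2.

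*Meioc* and *Ythdc2* encode an RNA-binding pair that lets germ cells leave the mitotic program. *Ythdc2* had 4.06, 3.999, 5.60, 5.001 and 5.17 log2 RPM in control, and its cryptorchid values ran from 4.05 to 6.17 with a median of 5.55. The groups overlapped over most of their range, with log2 differences of 0.40 ± 0.41 (SE; unadjusted *P* = 0.338) for *Ythdc2* and 0.37 ± 0.48 (unadjusted *P* = 0.459) for *Meioc*. Of the remaining members, *Tex14* had 8.35, 7.95, 8.34, 8.50 and 8.58 log2 RPM in control, and its cryptorchid values ran from 7.34 to 8.95 with a median of 8.68. Its difference of 0.15 ± 0.29 had a 95% interval of -0.46 to 0.75. *Tex15*, needed for recombination repair and for transposon silencing, differed by 0.60 ± 0.30 (unadjusted *P* = 0.0584). Its unadjusted limma *P*-value was under 0.05 in 4 of 12 fits with a library left out and in 4 of the 11 other alternatives. The telomere attachment gene *Majin* and the meiotic cyclin gene *Ccna1* differed by 0.47 ± 1.02 and -0.10 ± 0.66, among the widest errors of the list. Exons of *Ccna1*, *Msh4* and *Spata22* also overlap those of another annotated gene.

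**Figure D3:**
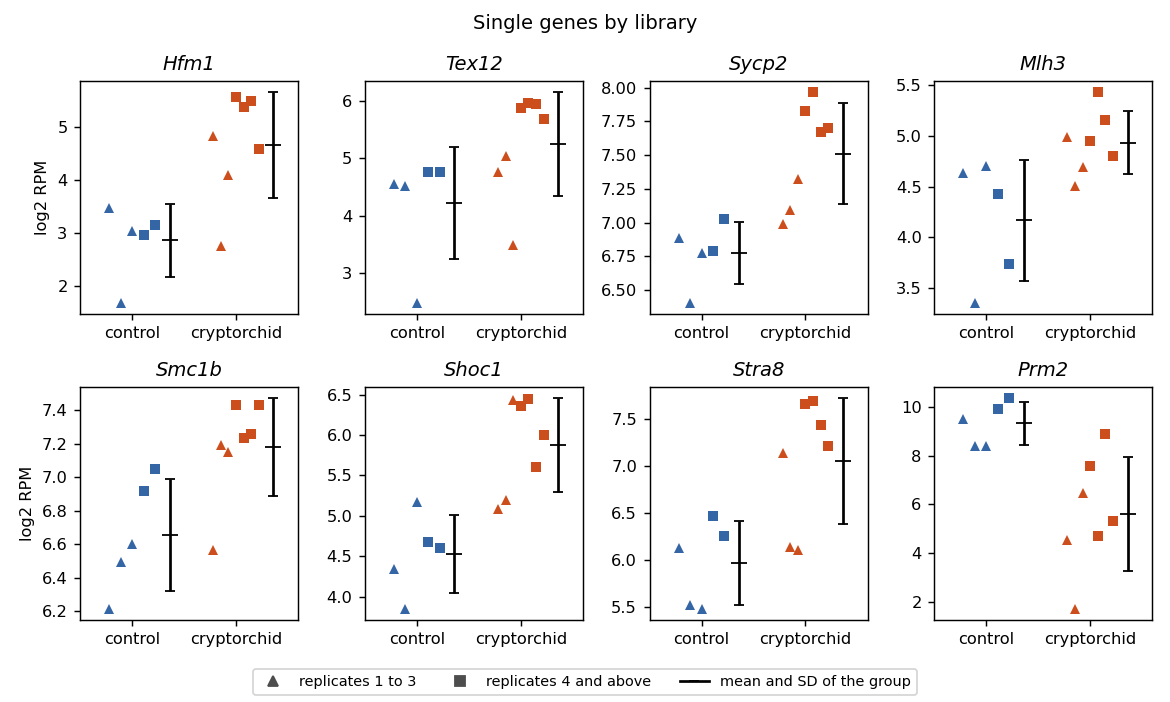
Level in log2 RPM of 8 genes in each library (vertical axis, own range per panel), with triangles for replicates 1 to 3 and squares for the replicates from 4 upward, and the mean and SD of each group in black. Hfm1 is above its highest control in 6 of 7 cryptorchid libraries, while the spermatid gene Prm2 is lower in cryptorchid libraries with a log2 difference of -3.73.

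Member levels followed the library as well as the group. The median over the 35 members of the deviation from the control mean was -0.26 to 0.26 in control libraries. Among cryptorchid libraries it was 0.13, -0.42 and 0.34 in replicates 1, 2 and 3, and 0.61 to 0.67 in replicates 4 to 7. Cryptorchid replicate 2 had the lowest value of its group for 17 members and control replicate 2 for 15. Summed over all members, the level was 1796 to 2436 RPM (median 2145) in control and 1715 to 3163 RPM (median 3040) in cryptorchid libraries. Without cryptorchid replicate 2, the median difference of the members was 0.50 and 8 of 35 had an unadjusted limma *P*-value under 0.05, all higher. Of 16822 genes tested in that fit, 1248 were higher by this rule. Without control replicate 2 the median was 0.12 and 2 members passed, where 712 of 16943 genes were higher. Without cryptorchid replicate 5 these values were 0.17 and 2 members, where 713 of 16919 genes were higher. In the latter fits, 2 of 35 is close to the share of all genes.

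The groups separated more often in the later replicates. Within the replicates from 4 upward (2 control and 4 cryptorchid libraries), 17 members (48.6%) did not overlap and were higher in all 4 cryptorchid libraries, where 14.1% of all genes did so, and *Msh5* alone was lower (14.1% of all genes). The 17 were *Sycp1*, *Sycp2*, *Sycp3*, *Tex12*, *Hormad1*, *Hormad2*, *Smc1b*, *Stag3*, *Spo11*, *Meiob*, *Spata22*, *Msh4*, *Mlh3*, *Hfm1*, *Tex11*, *Tex14* and *Tex15*. Within replicates 1 to 3 (3 against 3), 2 members did not overlap and were higher, *Sycp2* and *Mei4* (5.71%, against 4.69% of all genes), and 0 were lower (against 3.58%). The median log2 difference of the members was 0.14 within replicates 1 to 3, where 19 were higher, and 0.36 within the others, where 25 were higher. Of all 16932 genes, 9203 were higher within replicates 1 to 3 (median 0.057) and 8613 within the others (median 0.013). The share of members that were higher within replicates 1 to 3 was thus near that of all genes. A higher mean in both sets was found for 15 members and a lower one for 6. With a term for the set in the fit, 5 members had an unadjusted limma *P*-value under 0.05, all higher, as did 955 of all 16932 genes in that direction.

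**Figure D4:**
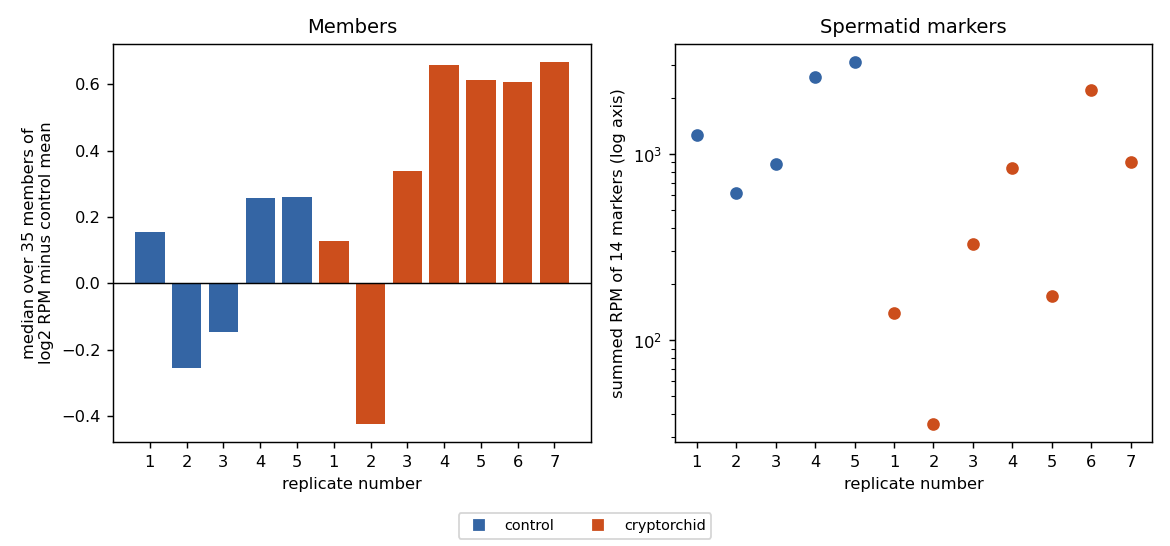
Left, the median over the 35 members of log2 RPM minus the control mean (vertical axis) in each library, and right, the summed RPM of 14 spermatid markers on a log axis, where blue is control and red is cryptorchid, ordered by replicate number. The members reach 0.61 to 0.67 in cryptorchid replicates 4 to 7 and -0.42 in cryptorchid replicate 2, which also has the lowest spermatid sum of 35.5 RPM.

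Genes outside the list with the same roles were counted in the same way. Of 37 other meiotic chromosome genes, 36 were in the table and all were tested. By the call rule 1 was higher and 0 were lower, where 3.56% and 2.36% of all genes tested were. The one called was *Shoc1*, a partner in crossover formation, whose control values were 4.35, 3.84, 5.17, 4.67 and 4.61 log2 RPM and whose cryptorchid values ran from 5.08 to 6.45 with a median of 6.001. In 6 of 7 cryptorchid libraries *Shoc1* was above the highest control, with a log2 difference of 1.35 ± 0.33 (SE; limma, unadjusted *P* = 0.000669, adjusted *P* = 0.189). Another 4, *Fignl1* (0.79), *Hsf2bp* (0.54), *Rad21* (0.80) and *Stag2* (0.73), were higher with unadjusted *P*-values under 0.05, and 0 were lower. With *Shoc1*, 5 of the 36 were higher by this rule, where 5.67% of all genes tested were higher and 3.82% lower. These 4 are named after their values were seen, and none of them held in every alternative. Their *P*-value was 0.05 or more in 6 of 23 alternatives for *Fignl1*, 12 for *Hsf2bp*, 10 for *Stag2* and, for *Rad21*, 1 (0.0624 without control replicate 3). For *Fignl1* these were the fits without control replicate 2 or 3 or cryptorchid replicate 1, 4, 5 or 7. For *Hsf2bp* they included the fits without control replicate 1, 2 or 5 or cryptorchid replicate 1, 3, 4, 5 or 7, and for *Stag2* those without control replicate 1, 2, 4 or 5 or cryptorchid replicate 3, 4, 5, 6 or 7. *Rad21* and *Stag2* are cohesin subunits of mitotic cells. The median log2 difference of the 36 genes was 0.27, with 29 higher, where the median of all genes was 0.10 and 56.7% were higher.

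Of 14 regulators of meiotic entry, all tested, 2 were called higher and 1 lower, where 3.56% and 2.36% of all genes tested were. *Stra8*, the retinoic acid target that starts meiosis, had 6.13, 5.52, 5.48, 6.47 and 6.26 log2 RPM in control, and its cryptorchid values ran from 6.11 to 7.70 with a median of 7.21. It was above the highest control in 5 of 7 cryptorchid libraries, those of replicates 1 and 4 to 7, with a log2 difference of 1.09 ± 0.33 (SE; limma, unadjusted *P* = 0.00371, adjusted *P* = 0.273). Its *P*-value was under 0.05 in all 23 alternatives, and the difference fell below 2-fold, to 0.94 with a term for the sets of replicates and to 0.96 to 0.98 without control replicate 2 or 3 or cryptorchid replicate 4 or 5. *Mybl1*, a spermatocyte transcription factor, differed by 1.26 ± 0.56 (unadjusted *P* = 0.0374), and by 0.85 (unadjusted *P* = 0.131) without control replicate 5. Its *P*-value was also 0.05 or more without cryptorchid replicate 4 (0.0563), 5 (0.0661), 6 (0.0781) or 7 (0.0593). The same held with quantile normalization (0.0528), voom (0.0758) and the replicate number as a block (0.105). The retinoic acid receptor gene *Rarg* differed by -1.06 ± 0.43 (unadjusted *P* = 0.0241), and by -0.86 (unadjusted *P* = 0.0818) without control replicate 1, -0.96 (unadjusted *P* = 0.0602) without control replicate 2 and -0.86 (unadjusted *P* = 0.0453) without cryptorchid replicate 3. Another receptor gene, *Rara*, was lower with an unadjusted *P*-value of 0.0349 and a log2 difference of -0.89. Its *P*-value was 0.05 or more with voom (0.0558) and without control replicate 2 (0.103), 3 (0.0785) or 4 (0.0560) or cryptorchid replicate 4 (0.0580), 5 (0.0745) or 7 (0.0697). The median log2 difference of the 14 genes was -0.04, which pools genes of different functions and is no measure of meiotic entry.

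Markers of haploid germ cells were lower in cryptorchid libraries. Of 14 spermatid markers, 0 were called higher and 5 lower, where 3.56% and 2.36% of all genes tested were. Their median log2 difference was -1.49, and the protamine gene *Prm2* differed by -3.73 ± 0.86 (SE; limma, unadjusted *P* = 0.000392). With a term for the sets of replicates 8 were called lower, where 635 of all 16932 genes were, and the median was -1.97. Without cryptorchid replicate 2 the numbers were 4 and -0.91, where 402 of 16822 genes were called lower. The summed RPM of the spermatid markers had a median of 1264 in control and 330 in cryptorchid libraries, and every marker had reads in at least 1 library. Of 13 tested spermatocyte markers outside the members, 0 were called, with a median of -0.28 and a summed RPM of 559 to 2388 in control and 344 to 2731 in cryptorchid libraries. With the term for the sets 4 of them were called lower and the median was -0.67, and the median was 0.33 without cryptorchid replicate 2 and 0.05 without control replicate 5. Of 7 markers of differentiating spermatogonia, *Dnmt3b* was called lower (-1.20) and the median was -0.76. This median was -0.90 with the term for the sets, but -0.24 with log2(RPM + 1) and -0.15 without cryptorchid replicate 2. Over the 5 of these markers with a log2 mean RPM above 2 it was -0.07. Of 18 markers of undifferentiated spermatogonia, 0 were called (1 lower with the term for the sets), and their summed RPM was 1351 to 2012 in control and 1506 to 2370 in cryptorchid libraries. The part of these other cells in the members' levels was not tested. The sums of somatic markers were lower than that of undifferentiated spermatogonia markers in both groups. For 11 Sertoli cell markers the sum was 47.9 to 249 RPM (median 71.9) in control and 44.3 to 256 RPM (median 128) in cryptorchid libraries. For 4 endothelial markers it was 24.6 to 41.4 RPM in control and 29.1 to 55.9 RPM in cryptorchid libraries. The lists of Leydig, peritubular myoid, macrophage and lymphocyte markers had at most 47.8 RPM in any library. *Gata1* (1 of 10 tested Sertoli markers), *Cdh5* (1 of 4 endothelial) and *Des* (1 of 3 peritubular myoid) were called higher, where 3.56% of all genes were. Of the Leydig, macrophage and lymphocyte markers 0 were called. *Cdh5* kept a *P*-value under 0.05 in all 23 alternatives, but *Des* did not with log2(RPM + 1) (0.0647) or a common floor (0.0538), nor *Gata1* with voom (0.0730).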

How the data were processed

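RNA was measured in 12 Smart-seq2 libraries, 5 control and 7 cryptorchid. The deposited values are log2 RPM. To make them, the authors used Trim Galore for trimming, HISAT2 for mapping to mm10 and SeqMonk for counting over protein-coding genes. Per the labels' processing notes, HISAT2 was version 2.1.0 and Trim Galore 0.6.6. Genes without reads carry a library's lowest value, taken as 0.9 reads, and with that step 100% of the values checked were whole reads within 0.01. All 12 columns were mapped to samples by name and 0 belonged to none. As the deposited unit is log2 RPM, the main test was on the log scale, and the recovered reads entered an alternative with voom, which called 785 genes higher and 497 lower.

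Differences are from limma 3.58.1 (lmFit and eBayes with trend) in R 4.3.3 over the 16932 genes whose mean RPM exceeded -1 on the log2 scale, unpaired, with Benjamini-Hochberg adjusted *P*-values over all of them. A call is 2-fold with an unadjusted *P*-value under 0.05, after the study's thresholds. Single genes were also compared by the rank sum test, exact and two-sided (smallest possible *P* = 0.00253). Groups were taken from the sample titles. In a simulation of 5 against 7 libraries with 16930 genes, 94% of 200 changed genes had *P* under 0.05 and the right sign. Of the unchanged genes, 5.09% had *P* under 0.05. The changed genes were given a larger difference than any member had, and were drawn from genes above a level limit. No difference between the sets of replicates was simulated. The 94% therefore does not give the power for the members. Recovery of differences as small as their median of 0.26 was not tested. Log2 changes of genes with few reads depend on the lowest value, and read numbers cover counting error only.

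Levels between genes were set per kilobase of merged GENCODE vM21 exons. Of the promoter windows, 29 of 35 members matched by symbol. The members and lists were chosen with earlier results of these data known. Members were described library by library when called, when their groups did not overlap or when they had the highest mean RPM of their role. *Mlh3* and *Smc1b* were added after their *P*-values were seen, as was the overlap within sets of replicates. The alternatives were median centring, quantile normalization, log2(RPM + 1), log2(RPM + 0.1), no filter, a filter at 2, array weights, voom on the recovered reads, a common floor, a term for the sets of replicates, the replicate number as a block, and each library left out. Scripts ran in Python 3.11.15 with pandas 2.3.3 and scipy 1.17.1.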

Additional observations from a re-analysis of the deposited data

Results flagged for a closer look

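In 12 of 70 groups (35 members in both groups), 1 library lay apart from the rest of its group in log2 RPM, by its gap relative to the range. The limit used is one that a single group of normal values passes about 1 time in 20. The 70 groups come from the same 12 libraries and are not independent, so their count was not set against chance. In each case the library that lay apart was the lowest of its group. Cryptorchid replicate 2 was that library for *Hormad1* (4.29), *Hormad2* (4.56), *Stag3* (5.90), *Tex11* (6.44), *Meioc* (2.07) and *Tex14* (7.34). The other cryptorchid libraries were *Sycp3* in replicate 3 (5.49), *Smc1b* in replicate 1 (6.57) and *Msh5* in replicate 7 (0.58). The control libraries were *Stag3* (6.33) and *Hfm1* (1.68) in replicate 2 and *Tex12* (2.48) in replicate 3. Cryptorchid replicate 2 was also the library with the lowest summed RPM of spermatid markers, at 35.5, and the relation of this to its member levels was not tested.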

How the results depend on the processing

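*Hfm1* and *Sycp2* kept an unadjusted *P*-value under 0.05 in all 23 alternatives, with log2 differences of 1.505 to 2.13 and 0.64 to 0.85. *Tex12* did in 16, *Mlh3* in 19 and *Smc1b* in 14. Among members that did not pass, *Sycp3*, *Hormad1*, *Hormad2*, *Spo11*, *Mei4*, *Spata22*, *Ythdc2* and *Tex15* had such a *P*-value in some alternatives and not in others. Members called higher were 1 rather than 2 under median centring, quantile normalization, log2(RPM + 1) and the term for the sets of replicates. *Tex12* fell below 2-fold there, at 0.96, 0.99, 0.98 and 0.82. The number was 3 with array weights, where *Spo11* at 1.17 was also called. With voom 2 were called, but *Spata22* at 1.96 took the place of *Tex12* at 0.91. The number was 1 to 3 when a library was left out. It was 1 without control replicate 2 or cryptorchid replicate 4, 5, 6 or 7. It was 3 without control replicate 4 or cryptorchid replicate 1 or 2. Without control replicate 3, *Spata22* at 1.87 was called and *Tex12* at 0.60 was not. No member was called lower in any of these alternatives. The median of the members was 0.12 to 0.50 with libraries left out. Of all genes, 603 were called higher and 399 lower. The split was 532 and 501 under median centring, 457 and 542 under quantile normalization, 580 and 635 under the term for the sets, 882 and 703 with array weights, and 385 higher with the filter at 2. It was 501 to 757 higher and 280 to 572 lower with libraries left out. Other meiotic chromosome genes called higher were 2 with array weights and 1 to 2 with libraries left out. Meiotic entry regulators called higher were 1 under quantile normalization, voom and the term for the sets, and 0 to 2 with libraries left out. Those called lower were 0 under log2(RPM + 1) and 0 to 2 with libraries left out.

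The sign turned for 12 members that did not pass the test and for 0 of the other 23. *Syce2* became -0.050 under median centring, -0.029 under quantile normalization, -0.16 with array weights and -0.16 with the term for the sets. *Iho1* became -0.064 under median centring and -0.067 under quantile normalization. *Meiob* became -0.023 under quantile normalization, -0.15 with voom and -0.12 with the term for the sets, and *Msh4* -0.028 with voom. With array weights *Dmc1* became 0.17 and *Ccna1* 0.057. With libraries left out the ranges were -0.11 to 0.26 for *Syce1*, -0.36 to 0.19 for *Syce2*, -0.43 to 0.31 for *Syce3*, -0.062 to 0.42 for *Rec8*, -0.14 to 0.092 for *Rec114*, -0.20 to 0.24 for *Iho1*, -0.35 to 0.19 for *Dmc1*, -0.19 to 0.68 for *Meiob*, -0.54 to 0.19 for *Psmc3ip*, -0.10 to 0.30 for *Msh4*, -0.94 to 0.031 for *Msh5* and -0.45 to 0.24 for *Ccna1*. The cause of these turns was not tested.

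The replicate numbers were used as a block in 1 alternative. Same-numbered libraries deviated together with correlations of 0.35, 0.36, 0.41, 0.25 and 0.05 over genes, and 4 of 5 control libraries correlated best with their own number. The correlation of 0.05, for number 5, is under 0.1 and the labels tie no number to a mouse, so the numbers were not taken as pairs. With the block, members called higher were 1 (*Tex12* at 0.81), 10 members (28.6%) had an unadjusted *P*-value under 0.05, all higher, against 11.4% of all genes, and 2 (5.71%) an adjusted one (*Hfm1* at 0.0174 and *Sycp2* at 0.0295), against 5.60%. With the block 778 genes were called higher and 900 lower, other meiotic chromosome genes called higher were 2, meiotic entry regulators called higher were 1, and *Syce1* (-0.10), *Syce2* (-0.26), *Meiob* (-0.37) and *Msh5* (0.16) changed sign. Spermatid markers called lower were 13 (median -2.76), spermatocyte markers 6 lower and 1 higher (median -0.72), and *Stra8* was at 0.98. *Gata1* had an unadjusted *P*-value of 0.0576 with the block. With array weights 10 members (28.6%) had an unadjusted *P*-value under 0.05, all higher, against 11.1% of all genes, and 2 (5.71%) an adjusted one (*Hfm1* at 0.0103 and *Sycp2* at 0.0289), against 2.81%.

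Members with few reads are limited by depth, the lowest library of *Majin* having 2 reads. The groups also differ in digestion temperature, and libraries from the same mouse cannot be told from the labels.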
